A study of Homo sapiens with 2 samples.

Results

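The regions described here are the CHD4 peaks at *PADI2*, *PADI4* and *PADI6*, the genes of the peptidylarginine deiminase family that flank *PADI1* and *PADI3* on chromosome 1. A peak was taken if it overlapped by at least 1 bp one of these genes, the 2000 bp before its start, or the stretch from 17446000 to 17531000 between *PADI2* and *PADI1*. This choice used positions and no measured value. Of the 60126 peaks in the list, 8 met it: 5 in *PADI2*, 2 in the stretch between *PADI2* and *PADI1*, 1 in *PADI6* and 0 in *PADI4*. They are called P1 to P8 in the order of their positions on the chromosome.

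Binding of CHD4 to chromatin was profiled by ChIP-seq in 501Mel, an established human melanoma cell line grown with 10% foetal calf serum. The CHD4 ChIP group is 1 library of chromatin fixed with 0.4% paraformaldehyde and precipitated with an antibody to CHD4. The input group is 1 library of the same kind of chromatin without precipitation, and no treatment or genetic change sets the groups apart. With 1 library in each group there was no replicate spread to hold a difference against, so the values below describe these libraries, the order of the peaks by strength could not be tested, and intervals cover counting error only.

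CHD4 is an ATPase that moves nucleosomes and is a core subunit of the NuRD complex, which also carries histone deacetylases and acts at promoters and enhancers. Peptidylarginine deiminases are calcium-dependent enzymes that convert arginine in proteins to citrulline, and their genes lie side by side. *PADI2* is the most widely expressed of them and is known from brain and muscle, *PADI4* encodes a nuclear enzyme of granulocytes that acts on histones, and *PADI6* is a gene of the oocyte and early embryo.

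The sequences of the regions that the values turn on are given first, on the plus strand of hg19, with matches to the searched motifs in capitals. P8 is shown whole, because it is the strongest of the 8 peaks and holds matches to 3 motifs in 259 bp. For P2, the strongest peak in *PADI2*, 300 bp around its matches are shown.
P8, intron 10 of PADI6, chr1:17718804-17719062: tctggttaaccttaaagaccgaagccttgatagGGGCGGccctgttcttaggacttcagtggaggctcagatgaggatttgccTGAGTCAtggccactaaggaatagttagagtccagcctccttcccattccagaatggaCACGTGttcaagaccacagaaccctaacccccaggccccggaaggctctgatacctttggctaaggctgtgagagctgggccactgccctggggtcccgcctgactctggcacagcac
P2, intron 6 of PADI2, chr1:17416107-17416406: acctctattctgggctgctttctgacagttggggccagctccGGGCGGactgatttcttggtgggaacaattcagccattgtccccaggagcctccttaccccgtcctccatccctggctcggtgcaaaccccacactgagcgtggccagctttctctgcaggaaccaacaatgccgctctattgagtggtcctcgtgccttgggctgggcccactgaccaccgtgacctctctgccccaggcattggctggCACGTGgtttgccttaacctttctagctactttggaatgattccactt
In P8 the capitals mark a GC box, an AP-1 match and an E-box in that order. In P2 they mark a GC box and an E-box.

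Each peak carries a fold enrichment, the ratio of the CHD4 ChIP signal to the background of the call, and a −log10 q, in which 2 stands for a q of 0.01 and larger values for a smaller q. The 8 peaks had fold enrichments from 2.57 to 3.91 with a median of 2.94, beside a median of 3.09 and quartiles of 2.86 and 3.42 for the whole list. Their −log10 q ran from 1.22 to 4.48 with a median of 2.04, beside 1.97 for the list. As a set they were therefore of ordinary strength for this list, with P8 and P2 above its upper quartile and P1, P3, P4 and P5 below its lower one. The peaks of chromosome 1 had a lower median fold enrichment, 2.97, with quartiles of 2.74 and 3.30. P1 and P3 lay between these quartiles, and P4 and P5 below them. A −log10 q of at least 2 was given for 4 of the 8 peaks, P2, P6, P7 and P8, beside 48.5% of the list, and one of at least 5 for 0, beside 2.23%.

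**Figure D1:**
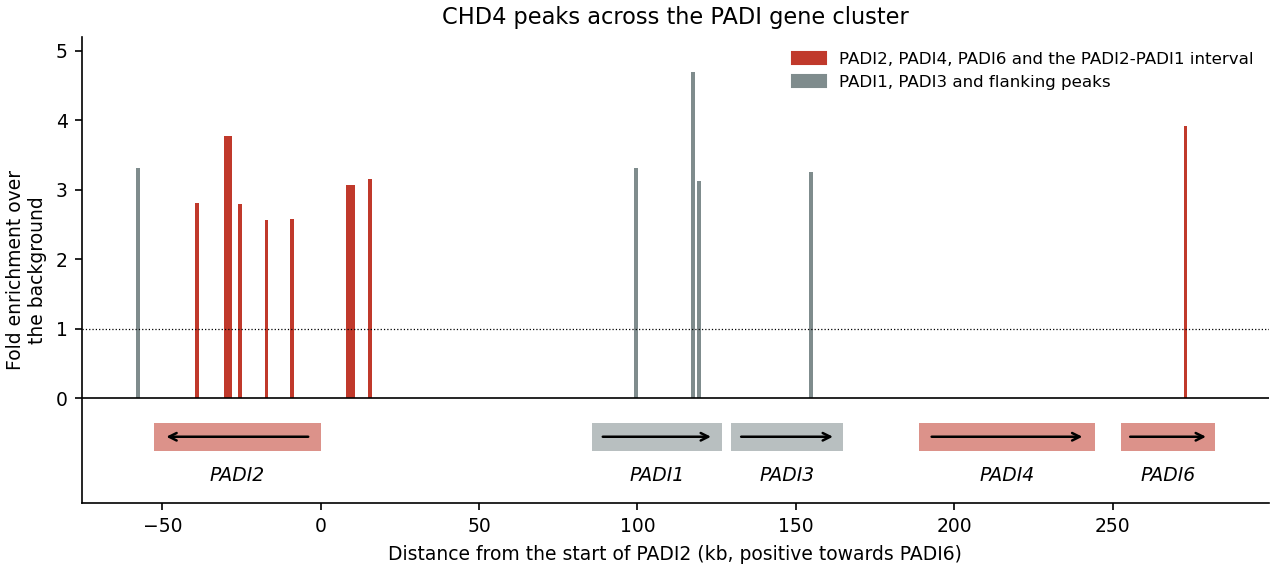
CHD4 peaks across the PADI gene cluster, with the distance from the start of PADI2 in kb on the horizontal axis and the fold enrichment of each peak as the height of its bar. Arrows give the direction of transcription, red marks the 8 peaks and their genes, grey the PADI1, PADI3 and flanking peaks, the dotted line is a fold of 1, and short peaks are drawn wider than they are. PADI4 carries no bar, and the strongest red bar, at 3.91, stands in PADI6.

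**Figure D2:**
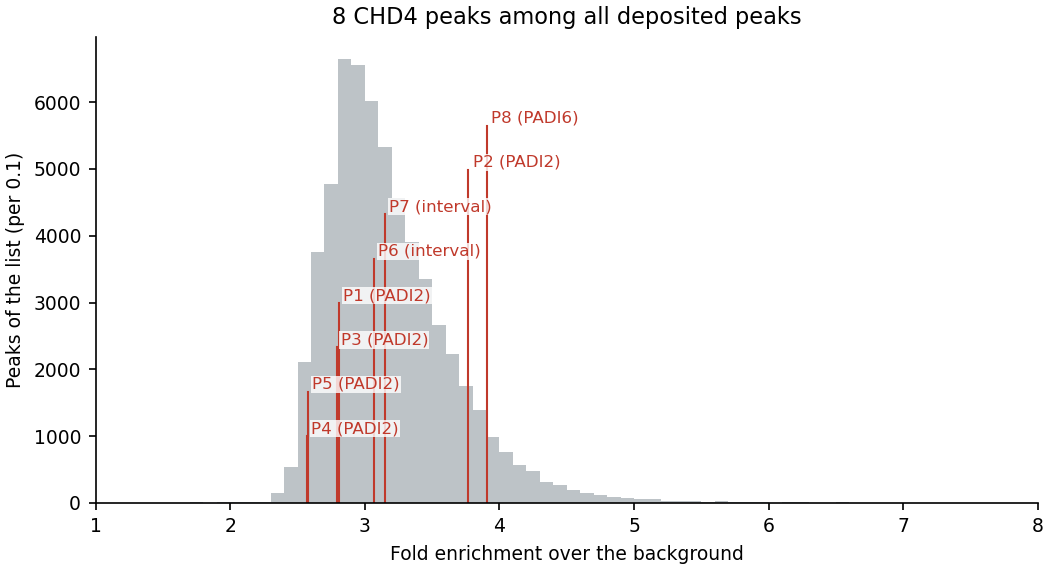
Number of peaks of the list per 0.1 of fold enrichment (grey bars), with the 8 peaks marked by red lines whose heights carry no value. The axis ends at 8, and a few peaks lie beyond it. P8 and P2 lie on the right shoulder at 3.91 and 3.77, and P4 and P5 at the left edge at 2.57 and 2.58.

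*PADI2* (ENSG00000117115), whose enzyme modifies myelin basic protein in the brain, lies on the minus strand from 17393256 to 17445946 and has 16 exons in its canonical transcript. It held 5 peaks, P1 to P5, all wholly within introns. P2 was the strongest of them, from 17415443 to 17418003 in intron 6, and was enriched 3.77-fold, at 7.08 in −log10 p and 4.28 in −log10 q. Of the list, 89.8% had a lower fold enrichment (Wilson 95% interval 89.5% to 90.0%). At 2561 bp it was also longer than 93.8% of peaks, and among the 4450 peaks of a length within 25% of its own 83.0% had a lower fold enrichment. P2 thus remained above most peaks when set against long peaks, which have a higher median fold enrichment, 3.39.

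The other *PADI2* peaks were weak for the list by fold enrichment, though P1 and P3 lay within the quartiles of chromosome 1. P1, from 17406896 to 17407046 in intron 10, was enriched 2.81-fold with its −log10 q at 1.56. Its 151 bp equal the length to which the authors extended reads, and no peak of the list was shorter. P3, from 17420192 to 17420912 in intron 4, reached 2.79-fold and a −log10 q of 1.88. In fold enrichment these peaks exceeded 19.7% and 18.1% of the list, and in −log10 q 27% and 46.0%, which places P3 near the middle by that measure.

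P4 and P5 were in the low tail of the list by fold enrichment, whose lowest value was 1.32. P4, from 17428558 to 17429040 in intron 3, was enriched 2.57-fold at a −log10 q of 1.22, and 3.56% of the list had a lower fold enrichment. P5, from 17436716 to 17436989 in intron 1, was enriched 2.58-fold at a −log10 q of 1.46, and 3.78% of the list had a lower fold enrichment. In −log10 q, 4.45% of the list lay below P4 and 20% below P5. P5 was the *PADI2* peak nearest to the upstream end of the gene, with its centre 9094 bp into it. The centres of P4, P3, P2 and P1 followed at 17147, 25394, 29223 and 38975 bp, so that the strongest signal of the gene lay past its middle and not towards its start.

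*PADI2* was rich in peaks for its size, though most of them were weak for the list by fold enrichment. The gene and the 2000 bp before it carried 9.14 peaks per 100 kb and had 7.66% of their bases under a peak. Among 2656 protein-coding genes of a length within 25% of that of *PADI2*, the median was 1 peak and 9.49% had 5 or more. With a −log10 q of at least 2, P2 was the only peak left in the gene.

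The stretch between *PADI2* and *PADI1* held P6 and P7, both towards *PADI2*. P6, from 17454037 to 17456778, was the longest of the 8 at 2742 bp and was enriched 3.07-fold, its −log10 q being 2.2. P7, from 17461132 to 17461880, was enriched 3.15-fold, its −log10 q being 2.26. Both were close to the middle of the list, with 48.0% and 55.8% of peaks below them, but P6 fell to 15.3% among the 4059 peaks of like length. Their centres lay 9461 and 15560 bp upstream of the start of *PADI2*, against 76216 and 70117 bp upstream of the start of *PADI1*.

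After P7 no peak followed until the first peak of *PADI1*, a stretch of 83387 bp from 17461881 to 17545267. It covers most of the interval between the genes as well as the canonical start of *PADI1*. Of the 6934 gaps between neighbouring peaks of chromosome 1, 8.0% were as long or longer. Such gaps held 63.4% of the bases of chromosome 1 that lie between peaks, so that a base chosen from them lay more often in a gap of this size than in a shorter one. Gaps were measured from peak to peak, so stretches without sequence, where no peak can be called, count in them. How much they add to this share was not tested.

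*PADI4* (ENSG00000159339), the granulocyte gene whose enzyme citrullinates histones during the release of chromatin from neutrophils, lies on the plus strand from 17634690 to 17690499 and has 16 exons. No peak overlapped it or the 2000 bp before it. The nearest peaks lay 33236 bp before its start, in *PADI3*, and 28305 bp after its end, where P8 begins. They bound a gap of 117349 bp from 17601455 to 17718803, and 5.67% of the gaps of chromosome 1 were as long or longer. When peaks of −log10 q under 2 were left out, the gap was the same and 14.4% were as long. The median gap of that chromosome was 7698 bp, but gaps as long as that of *PADI4* held 56.8% of the bases between its peaks. Here too the part of stretches without sequence in this share was not tested.

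A gene of this length without a peak was not rare. Among 2609 protein-coding genes of a length within 25% of that of *PADI4*, 32.4% had no peak and 67.6% had at least 1 (Wilson 95% interval 65.8% to 69.4%). Reads with more than 1 best position were dropped by the authors, so the share of 50-base positions that occur once in the genome was counted. It was 93.1% in *PADI4* with the 2000 bp before it and 93.9% in the gap, against 91.4% of positions sampled along chromosome 1. Among the 5 PADI genes *PADI4* had the lowest share, the others running from 95.4% to 97.1%, and the part of this in its lack of a peak was not tested. Since the list gives called peaks and no signal between them, signal below the threshold of the call cannot be told apart from background.

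**Figure D3:**
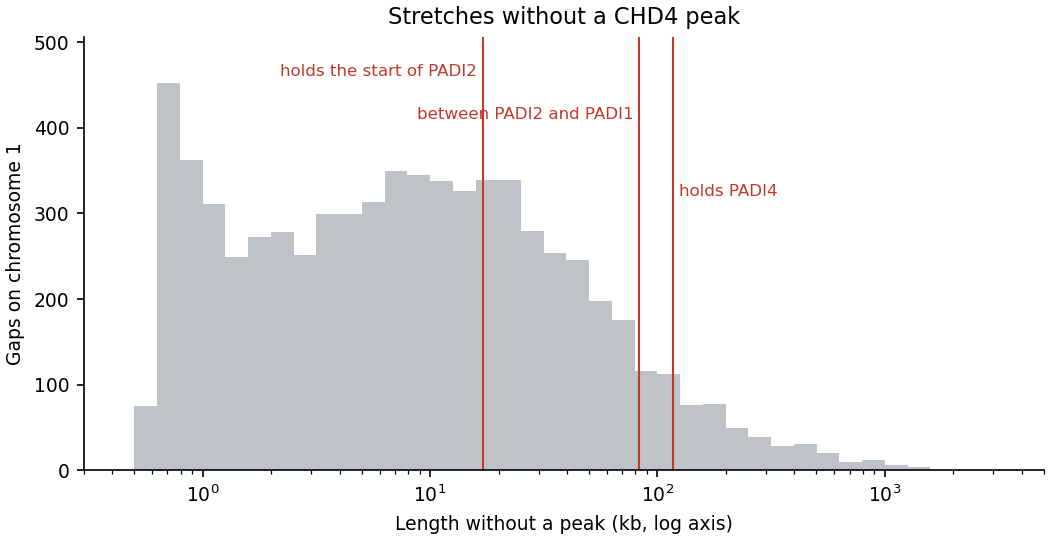
Lengths of the stretches between neighbouring CHD4 peaks of chromosome 1, in kb on a log axis, with the number of gaps in each class as bars. Red lines mark the gap with the start of PADI2 (17047 bp), that between PADI2 and PADI1 (83387 bp) and that with PADI4 (117349 bp). The last of these lies in the right tail, where 5.67% of gaps are as long or longer, or 14.4% when peaks of −log10 q under 2 are left out.

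*PADI6* (ENSG00000276747), which encodes a component of the cytoplasmic lattices of the oocyte, lies on the plus strand from 17698691 to 17728195 and has 17 exons. GENCODE tags the record as touched by an error of the reference genome. Its 1 peak, P8, was the strongest of the 8, enriched 3.91-fold at 7.44 in −log10 p and 4.48 in −log10 q. Of the list, 93.0% had a lower fold enrichment (Wilson 95% interval 92.8% to 93.2%) and 96.4% a lower −log10 q. P8 is short, with 259 bp, and among the 8044 peaks of like length it exceeded 95%, and their median was 2.94.

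P8 lies wholly within intron 10, and its centre is 20242 bp after the start of *PADI6*. The nearest annotated start of any gene is that of *RCC2-AS1*, 14194 bp away. The bases before it were free of peaks back through *PADI4* to the peak of *PADI3*. On the other side the next peak began 38398 bp after the end of *PADI6*, from 17766593 to 17766938, with a fold enrichment of 3.6. At the other edge of the cluster, the peak next to *PADI2* lay outside the rule by 4932 bp, from 17388125 to 17388324, with a fold enrichment of 3.31.

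Of the 3 genes, 2 had a peak, *PADI2* and *PADI6*. Across 20098 protein-coding genes, 58.5% had one in the gene or the 2000 bp before it (Wilson 95% interval 57.8% to 59.2%), and on chromosome 1 63.7% of 2092 did. The share rises with the length of the gene, and among genes of like length it was 67.3% for *PADI2* and 60.8% for *PADI6*. A count of 2 of 3 is close to these shares and sets the genes apart from the rest of the genome in neither direction. *PADI1* had 3 peaks, the strongest at 4.70, and *PADI3* had 1 at 3.26, so the strongest peak of *PADI6* lay between those of the central genes.

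**Figure D4:**
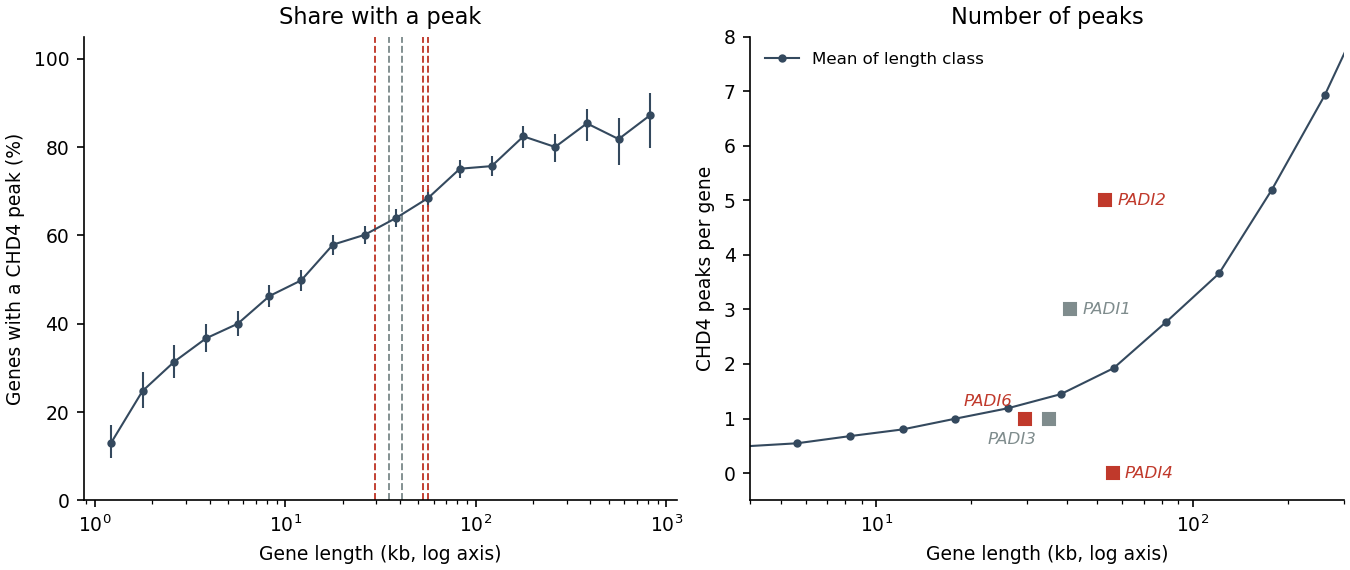
Share of protein-coding genes with a CHD4 peak (left, in percent, with Wilson 95% intervals) and mean number of peaks per gene (right) by gene length in kb on a log axis. Dashed lines and squares mark the PADI genes, with PADI2, PADI4 and PADI6 in red and PADI1 and PADI3 in grey. PADI2 lies above the mean of its length class with 5 peaks, PADI6 next to it with 1 and PADI4 below it with 0.

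None of the 3 genes had a peak within 1000 bp of any annotated transcript start, whereas 42.6% of the 20098 protein-coding genes did. For *PADI2* the canonical start was 8091 bp from the nearest peak, P6, and lay in a gap of 17047 bp. An alternative start within the gene, of a shorter transcript, was 2875 bp from P1. The starts of *PADI4* were between 33236 and 46275 bp from a peak, and that of *PADI6* was 20113 bp from one. *PADI1* differed from them in an alternative start 269 bp from a peak, while its canonical start was 13645 bp from one and that of *PADI3* 9735 bp. The peaks of *PADI2* and *PADI6* therefore lay in introns, and the other peaks described lay between *PADI2* and *PADI1*, away from the starts. At a share of 42.6%, most protein-coding genes also had no peak at a start. A count over 3 genes therefore cannot set them apart from the rest of the genome. The share of all peaks that lie away from starts was not counted.

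The promoters of the 3 genes differ in base composition, and their sequences are shown because the share of genes with a peak at the start differed with that composition. Each line gives the 250 bases before the start of the gene record in the direction of the gene, with the dinucleotide CG in capitals.
PADI2, minus strand, chr1:17445947-17446196: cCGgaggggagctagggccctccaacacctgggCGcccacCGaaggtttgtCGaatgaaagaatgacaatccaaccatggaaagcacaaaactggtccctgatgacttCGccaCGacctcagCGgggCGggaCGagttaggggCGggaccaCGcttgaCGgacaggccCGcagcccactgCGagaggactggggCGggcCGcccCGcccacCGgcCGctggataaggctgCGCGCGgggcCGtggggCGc
PADI4, plus strand, chr1:17634440-17634689: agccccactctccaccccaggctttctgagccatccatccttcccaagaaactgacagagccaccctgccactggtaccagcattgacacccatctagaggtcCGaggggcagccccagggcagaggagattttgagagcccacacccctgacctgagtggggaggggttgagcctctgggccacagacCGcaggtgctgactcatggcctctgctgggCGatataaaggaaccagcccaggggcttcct
PADI6, plus strand, chr1:17698441-17698690: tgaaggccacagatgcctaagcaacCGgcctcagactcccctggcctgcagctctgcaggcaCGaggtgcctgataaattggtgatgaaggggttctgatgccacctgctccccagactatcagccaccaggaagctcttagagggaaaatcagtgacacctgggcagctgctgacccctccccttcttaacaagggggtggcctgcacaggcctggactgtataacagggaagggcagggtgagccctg
The *PADI2* sequence holds 24 CG, that of *PADI4* 3 and that of *PADI6* 2, beside a median of 14 over all protein-coding genes, of which 75.4%, 15.7% and 9.69% had fewer. From 250 bases before to 50 after the start, the ratio of observed to expected CG was 0.786 in *PADI2*, 0.211 in *PADI4* and 0.146 in *PADI6*, with GC contents of 69.0%, 61.7% and 60.7%. Of the 10198 genes with a ratio of at least 0.6 and a GC content of at least 55%, 44.0% had a peak within 1000 bp of the start of the gene record (Wilson 95% interval 43.1% to 45.0%). Of the 9900 others, among them *PADI4* and *PADI6*, 23.4% did (22.6% to 24.3%). *PADI2* belongs to the first class, in which most genes, like *PADI2*, had no peak at the start.

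The same 250 bases were searched on both strands for 6 motifs. *PADI2* has 5 matches to the GC box (GGGCGG), which 48.8% of the 20098 promoters hold. *PADI4* has an AP-1 match (TGACTCA, which reads TGAGTCA on the other strand) that begins 52 bp before the start, a motif that 3.35% of promoters hold. The *PADI6* sequence has no match to any of them. None of the 3 sequences holds an E-box (CACGTG), an M-box (TCATGTG), a SOX match (ACAAAG) or a CTCF match, which occur in 7.17%, 2.22%, 12.2% and 0.517% of promoters. A match is a description of letters, not a site.

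The same motifs were searched on both strands across the whole of each peak. AP-1 matches were found in 2 of the 8 peaks, P8 among them, beside 17.1% of all peaks. The other of the 2 is a long peak, and 42.9% of peaks of its length hold a match. In P8 the match lies from 17718887 to 17718893, 43 bp from the centre, and 5.37% of peaks of like length hold one. An AP-1 match is thus an infrequent feature for a peak as short as P8.

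M-box matches were found in 1 of the 8 peaks, beside 17.1% of all peaks. The E-box was found in P2, from 17416359 to 17416364, and in P8, from 17718945 to 17718950 and 15 bp from the centre, beside 12.6% of all peaks. Among peaks of like length 28.9% hold it for P2 and 4.72% for P8. P8 therefore combines motifs that are each uncommon at its length. It was also richer in GC than 87.9% of peaks of like length, and shares among peaks of like GC content were not counted. With 6 motifs searched in 8 peaks, how often such a combination arises was not tested.

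GC boxes were found in P2, P7 and P8, beside 17.7% of all peaks, and SOX matches in 2 of the 8, beside 46.6%. The GC box of P8 lies from 17718837 to 17718842, and 5.89% of peaks of its length hold one. No CTCF match was found in the 8 peaks or within 600 bp of their centres, and 1.52% of all peaks hold one. P1, P3, P4 and P5, the weaker peaks of *PADI2*, hold no match to any of the 6 motifs. Each motif is also absent from most peaks of like length. The most frequent, the SOX match, is held by 13.2% of such peaks for P1, 46.8% for P3, 35.3% for P4 and 21.9% for P5. The share that holds none of the 6 was not counted. In P2, P7 and P8 no matches of different motifs overlap.

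In base composition the peaks were richer in GC than most of the list. Their GC content had a median of 53.5% and ran from 41.3% in P6 to 56.7% in P3, beside a median of 43.8% over all peaks. P1, P2, P3, P7 and P8 lay above the upper quartile, and P6 alone below the median. The ratio of observed to expected CG had a median of 0.237, beside 0.203 over all peaks, and was lowest in P5 at 0.0631 and highest in P6 at 0.326. By their medians, the higher GC content of the 8 peaks thus came with a CG ratio slightly above that of the list and below the 0.786 of the promoter of *PADI2*. This did not hold peak by peak. P3, the highest in GC content, had a CG ratio of 0.155, and P4 and P5 also lay below the median of the list, at 0.111 and 0.0631.

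**Figure D5:**
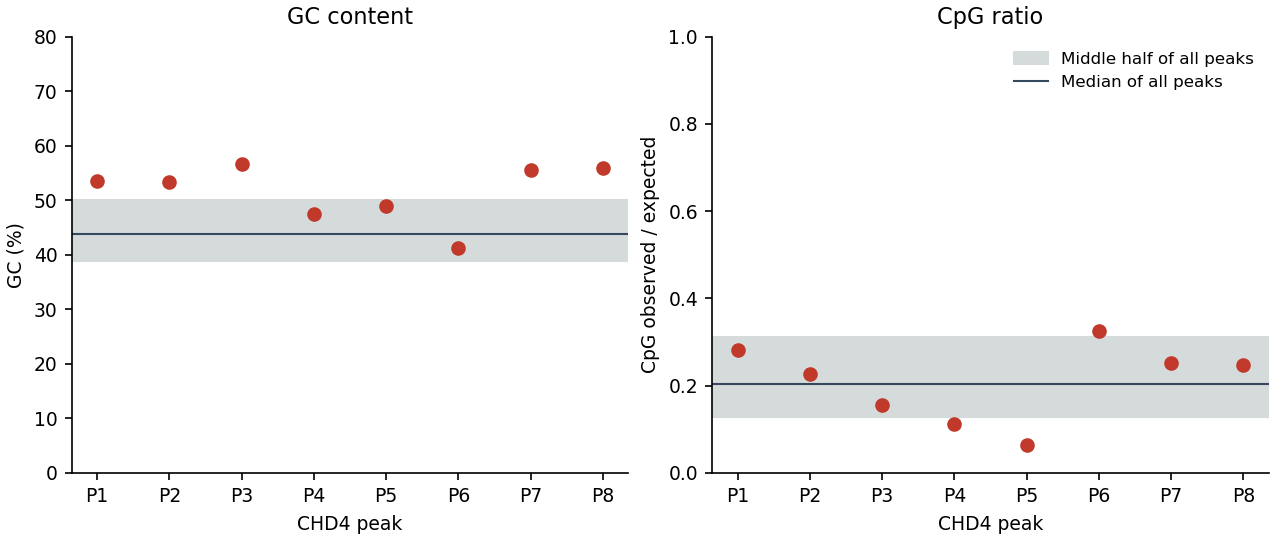
GC content in percent (left) and ratio of observed to expected CpG (right) of the 8 peaks, with the median of all peaks as a line and the range between their quartiles as a grey band. In GC content 5 of the 8 points lie above the band, and in the CpG ratio the highest point, P6, stands at 0.326.

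Of the 50-base positions of the peaks, 100% occur once in the genome for each peak but P6. In P6 88.1% do, the lowest share among the 8 and below the 91.4% of chromosome 1. The regions as a whole were at 95.4% for *PADI2*, 96.1% for *PADI6* and 96.1% for the stretch between *PADI2* and *PADI1*, and *PADI4* was at 93.1%. Their densities were 9.14, 3.17, 2.35 and 0 peaks per 100 kb in the same order, and the part of these shares in them was not tested.

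Over 227060 bp, the 3 genes, the bases before them and the stretch between *PADI2* and *PADI1* held 3.52 peaks per 100 kb, and peaks covered 3.50% of their bases. Chromosome 1 held 3.08 per 100 kb with 3.01% covered, and chromosomes 1 to 22 and X 2.12 with 1.98% covered. The density was 1.14 times that of chromosome 1, and *PADI2* alone provided 5 of the 8 peaks. *PADI1* and *PADI3* with the bases before them held 5.0 per 100 kb. Within the 500000 bp before the cluster the density was 6.40 and in the 500000 bp after it 2.60, so the cluster, at 3.58, stood between its flanks.

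Among other protein-coding records within 500000 bp of the cluster, 7 of 12 had a peak, beside 58.5% of all protein-coding genes, and 6 had one at a start, beside 42.6%. These counts are small, some of the records overlap, and no test of a difference was made. On the side of *PADI2* the nearest were *SDHB*, a subunit gene of succinate dehydrogenase, with no peak, and *ATP13A2*, a lysosomal polyamine transporter gene, with 3 peaks up to a fold enrichment of 2.9. The record ENSG00000288636, which overlaps *ATP13A2*, had 2. On the side of *PADI6* they were *RCC2* with 1 peak at 3.6, *ARHGEF10L* with 7 up to 3.61 and *ACTL8* with none. The highest fold enrichment among the neighbours was that of *CROCC*, a gene of the ciliary rootlet, at 3.79. P8 exceeded each of these and P2 exceeded all but *CROCC*. *AC004824.2*, an older record on the minus strand within *PADI4*, had no peak.

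Genes linked to the roles of the 3 enzymes were counted in the same way. Of 14 genes that encode known substrates of citrullination, 5 had a peak, or 35.7% beside 58.5% of all protein-coding genes. The highest were *MBP*, which encodes myelin basic protein, at 4.58, *ENO1* at 3.4 and *PKM*, the pyruvate kinase gene, at 3.34. The median length of these genes was 13310 bp, beside 27256 bp for all, and 49.8% of the genes in its length class had a peak. The share was thus below that of all genes in a list of shorter genes, and 5 of the 14 had a peak at a start, beside 42.6% of all genes.

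For *PADI2*, 2 of 6 myelin and oligodendrocyte genes had a peak (33.3%, median length 17523 bp), *MAG* at 4.38 and *CNP* at 3.74. *MBP* is also a myelin gene with a peak but was counted among the substrates. For *PADI4*, 4 of 12 neutrophil and granulocyte genes did (33.3%), the highest being *PRTN3* at 3.82, *ELANE* at 3.6 and *AZU1* at 3.41, which encode granule proteins. These 3 genes lie side by side on chromosome 19, from 825097 to 856247, and so come from 1 locus. The median length of the list was 6078 bp. For *PADI6*, 3 of 7 genes of the oocyte subcortical maternal complex and its partners did (42.9%, median length 26579 bp), *ZBED3* at 3.45, *TLE6* at 3.15 and *OOEP* at 2.73. The share of all protein-coding genes was 58.5%, and in the length classes of these medians it was 57.9% for the myelin list, 40% for the neutrophil list and 60.1% for the oocyte list. A peak at a start was found in 1 of the 6 myelin genes, 1 of the 12 neutrophil genes and 2 of the 7 oocyte genes, beside 42.6% of all genes. No test of these differences was made.

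The label of the cells was set against markers of melanocytes and of other cell types, for which peaks describe CHD4 occupancy and not expression. All 8 melanocyte and melanoma markers had a peak, beside 58.5% of all protein-coding genes and 64.0% of those in the length class of their median, 33859 bp. Each of the 8 had one at a start, beside 42.6% of all genes, with the highest fold enrichments at *PAX3* (5.19), *DCT* (4.02) and *PMEL* (3.99). Of 8 markers of keratinocytes, fibroblasts and leukocytes, 2 had one, *COL1A1* at 6.27 and *PDGFRB* at 2.73, beside 60.1% of genes in the length class of their median, 26932 bp. The 3 highest melanocyte markers exceeded P8, and the median over the 8 melanocyte markers of the highest fold enrichment per gene was 3.77, as in P2 of *PADI2*. *PADI2* and *PADI6* differed from the melanocyte markers in where their peaks lay, since none was at a start.

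By the number of peaks, length within 25% and highest fold enrichment, the genes most like *PADI2* were *ZC2HC1C* at 3.76, *TOM1* at 3.78 and *MAP3K14* at 3.79, out of 99 genes with 5 peaks. Those most like *PADI6* were *ASPA* at 3.91, *NALF2* at 3.91 and *C3orf85* at 3.92, out of 783 genes with 1 peak. *PADI4* shared its lack of a peak with 845 genes of like length, which this measure cannot order. Likeness here rests on 1 library.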

How the data were processed

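The CHD4 ChIP library held 72454814 reads, of which 61118955 unique, and the input library 66482761 and 55232825, all of 50 bases. The authors mapped them to hg19 with Bowtie, for which the submitters' processing notes and the reporting summary name different versions, dropped reads that fit more than 1 position equally well, and called broad peaks with MACS2 2.1.1.20160309 on reads extended to 151 bp. Whether the input served as the control of that call is not given in the sources used here. The deposited list gives per peak the fold enrichment, a ratio to the background of the call. It also gives the −log10 of the p-value and the q-value that the authors' caller computed. A q of 0.01 is named for the call, but the largest q of the deposited list is 0.0991. The list holds no read counts.

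Peaks were compared, counting from 1, with GENCODE release 44 mapped to GRCh37 and with that sequence, which has the names and lengths of hg19. Lengths within 25% counted as alike. Intervals are Wilson intervals at 95%. The overlap, merging, motif and unique-position steps were tested on simulated data. Members and lists were chosen with earlier results of these data known, and the gaps, unique positions, flanking densities, density relative to chromosome 1, promoter sequences and promoter classes were added after the peaks had been seen. The genes named are the PADI genes, the 3 nearest neighbours on each side and the 3 highest within 500000 bp, the 3 highest of each list, and the 3 most alike for *PADI2* and *PADI6*. *RCC2-AS1* and *AC004824.2* were named after their values were seen. No test was made, because there is 1 library of each kind. The sequence and motif positions of 1 peak are not reported here. The computation used Python 3.11.15, pysam 0.24.0, numba 0.67.0, samtools 1.23.1, scipy 1.17.1, pandas 2.3.3, matplotlib 3.10.9 and numpy 2.4.6.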

Additional observations from a re-analysis of the deposited data

How the results depend on the processing

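No paired analysis was possible because each group is 1 library. Over all results 37 values were recomputed under an alternative, of which 19 stayed close and 18 did not, where close means within 1.5 times for a count or density and within the counting interval for a percentage. These intervals are narrow, so small shifts of a percentage count among the 18. Among them is also the density in covered bases, which is in another unit and could not be close. Relative to chromosome 1 that density was 1.16 times as high, beside 1.14 for peaks. Keeping peaks of −log10 q at or above 2, the 8 peaks became 4, the density fell from 3.52 to 1.76 per 100 kb and the share of protein-coding genes with a peak from 58.5% to 43.4%, because fewer peaks were counted, while 2 of the 3 genes still had a peak. At or above 5, these were 0 peaks, 4.75% and 0 genes. Merging peaks, other lengths before the gene and a larger overlap left 8 peaks and 2 genes. The share of genes became 50.9% with no bases before the gene, 60.7% with 5000 bp, and 57.7% with at least 1 in 2 bases of the peak inside, which follows from the regions searched.

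In fold enrichment P8 exceeded 93.0% of peaks, and this became 96.4% when ranked by −log10 q, 95% on chromosome 1, 95% at like length and 85.6% among peaks of −log10 q at or above 2, for which the cause was not tested. In another unit, 3497 bases per 100 kb were covered. Within 5000 bp of a start, 1 gene had a peak, *PADI2*, by its alternative start. Within 250 bp of the centre, 1 of the 8 peaks had an AP-1 match, against 2 over whole peaks, which follows from the narrower window.

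The gaps and the density relative to chromosome 1 were among the values added after seeing the data. The gap with *PADI4* was the same 117349 bp when peaks of −log10 q under 2 were left out, but 14.4% of gaps were then as long. With all peaks kept, 7.84% of the gaps of chromosomes 1 to 22 and X were as long. Relative to chromosome 1 the density ratio lay between 1.14 and 1.41, and relative to chromosomes 1 to 22 and X it was 1.66. The list holds no signal between peaks, and the part of depth in what was called was not tested.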
